A study of Mus musculus with 4 samples.

Results

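Translation factors are the proteins, outside the ribosome itself, that start and lengthen polypeptide chains on mRNA. The genes described here were taken by name from the count table: symbols beginning Eif1 to Eif6, Eef1 or Eef2, without the Eif2ak kinases and without names that contain -ps. Of 77 names that matched, 4 kinases and 8 -ps names were removed, which left 65 genes. Of these, 60 had at least 10 counts in 2 or more libraries, and the same 60 passed the expression filter and were tested among 12320 genes in all. The 5 others were Eif2s3y, Eif4e1b, Eif4ebp3, Eef1a2 and Eef1akmt3. The tested genes comprised 5 of the eIF1 group, 5 of the eIF2 group, 5 subunits of eIF2B, 14 of eIF3, 14 of the eIF4 group, 5 of eIF5 and eIF6, 6 elongation factors and 5 enzymes that modify elongation factors. The remaining one, Eif2c5, is annotated as a long non-coding RNA and matched by its name alone.

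The cells were B16-F10, a mouse melanoma line, made fluorescent and infused into zebrafish. The compared groups were 2 libraries labelled as having extravasated, that is, left the vessels of the fish, and 2 labelled as not having done so, which the series names as the controls. Per the labels, all cells were kept in IMDM with 10% fetal bovine serum after recovery, and polyA RNA was sequenced from stranded libraries. One growth text, which speaks of extravasated cells, is attached to all 4 libraries, so the groups were taken from the extravasation label, which the source names repeat. All extravasated libraries share one number in their titles and all others share another, and this number and extravasation cannot be told apart. Separate cultures are not stated for the libraries of a group, so the p-values speak of the spread among these particular libraries, and that spread may be technical.

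Initiation begins when eIF2, carrying GTP and the initiator tRNA, joins eIF1, eIF1A, eIF3 and eIF5 on the small ribosomal subunit, while eIF2B recharges eIF2 with GTP. The cap-binding complex of eIF4E, the scaffold eIF4G and the RNA helicase eIF4A recruits the mRNA, and eIF5B then helps the large subunit join. During elongation eEF1A delivers aminoacyl-tRNA, the eEF1B subunits recharge eEF1A, eEF2 moves the ribosome along, and eIF5A helps at sequences where it stalls. Tumour cells, melanoma included, are known to adjust the cap-binding complex and eIF2 signalling when they change their protein output.

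Without the correction for base composition described below, some closely related members of the family differed in direction between the groups. Eif5a rose and Eif5a2 fell, and Eif4a2 fell where Eif4a1 did not pass the test. With the correction Eif5a2 did not pass either. The coding stretches below show how alike the eIF4A and the eIF5A paralogues are. They come from GENCODE M21 transcripts on GRCm38, are written 5′ to 3′ on the coding strand, and lie within single exons. Capitals mark the codons of the helicase DEAD box in the eIF4A genes and of the loop around the hypusine site in the eIF5A genes. Both motifs were searched by their residues in the translated reading frame, that is on the coding strand only, and 1.07% and 0.018% of 11095 coding sequences of tested genes, respectively, held them. The stretches are at chr11:69668689-69668748 (minus strand, exon 6) for Eif4a1, chr16:23110239-23110298 (plus strand, exon 6) for Eif4a2, chr11:119294325-119294376 (minus strand, exon 6) for Eif4a3, chr11:69919151-69919198 (minus strand, exon 3) for Eif5a and chr3:28782169-28782216 (plus strand, exon 2) for Eif5a2.
Eif4a1: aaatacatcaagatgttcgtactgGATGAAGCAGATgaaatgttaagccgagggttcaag
Eif4a2: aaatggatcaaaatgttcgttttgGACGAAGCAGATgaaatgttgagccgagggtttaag
Eif4a3: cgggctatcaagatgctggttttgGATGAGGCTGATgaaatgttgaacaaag
Eif5a: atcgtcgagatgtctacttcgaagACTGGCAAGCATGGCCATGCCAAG
Eif5a2: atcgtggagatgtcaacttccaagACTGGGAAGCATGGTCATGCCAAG

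Eif4a1 and Eif4a2 were 78.49% identical over 1218 aligned coding bases, and 75.95% of their differing bases lay at the third position of a codon. These positions were 57.49% G or C in Eif4a1 and 44.12% in Eif4a2. Eif5a and Eif5a2 were 73.16% identical over 462 bases, with 75.81% of the differences at the third position, where G or C made up 56.13% and 44.16%. Eif3j1 and Eif3j2 had identical aligned coding sequences over 786 bases, so how reads were shared between them is not known and their counts are uncertain.

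Depth ranged from 11705904 to 16430477 counts over the non-extravasated and from 13256522 to 19674733 over the extravasated libraries. Libraries of a group differed by more than counting noise and were not duplicates, with a chi-square per degree of freedom of 27.8 and 16.2. All 7 melanocyte markers exceeded 1 CPM in at least 1 library. Their summed levels were 23904 to 28884 CPM in the non-extravasated and 29901 to 30903 CPM in the extravasated libraries. CPM are counts scaled to a common library total with TMM factors. The 6 endothelial and the 6 immune markers each summed to under 1 CPM in every library, with Tek, Tie1, Kdr, Cdh5, Ptprc, Itgam, Cd3e and Adgre1 at 0, and the 4 erythroid markers were at 0. Of 7 fibroblast markers, Thy1, Dcn and Lum were at 0, and the list summed to 8.51 to 8.85 CPM in the non-extravasated and 10.8 to 11.3 CPM in the extravasated libraries. Reads were aligned to the mouse genome, so these lists do not measure cells of the zebrafish. The part of these marker levels in the results was not tested. Eif2s3y, the Y-linked copy of the eIF2 gamma subunit gene, had no count in any library, as had Kdm5d and Uty, and Ddx3y had 1 count in 1 extravasated library.

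Between extravasated and other cells translation factor transcripts differed in both directions, also within complexes. Transcripts of most eIF3 subunits, of 3 eIF2B subunits and of the elongation factors Eef2, Eef1d and Eef1g were higher in the extravasated libraries, and those of the eIF2 subunits, Eif5, Eif5b, Eif4a2 and Eif4e were lower. By edgeR's quasi-likelihood test with Benjamini-Hochberg adjustment over all 12320 genes (adjusted p under 0.05), 26 of the 60 genes rose, 17 fell and 17 did not pass. Over all tested genes 19.1% rose and 25.9% fell. These calls were made without a correction for base composition. Under the forms of such a correction described below, 5 to 15 of the 43 calls among the 60 genes held in the same direction. The median log2 fold change, extravasated minus not, was 0.27 for the 60 genes and -0.02 for all tested genes. CPM of the groups did not overlap for 58 of the 60, of which 36 were higher and 22 lower, against 37.3% higher and 39% lower among all genes. Eif3c and Eif4enif1 were the genes whose groups overlapped. Summed over the 60 genes, levels were 27657 and 25309.8 CPM in the non-extravasated and 31308 and 31031 CPM in the extravasated libraries. In bulk RNA, fewer cells of a type and less RNA per cell cannot be told apart.

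**Figure D1:**
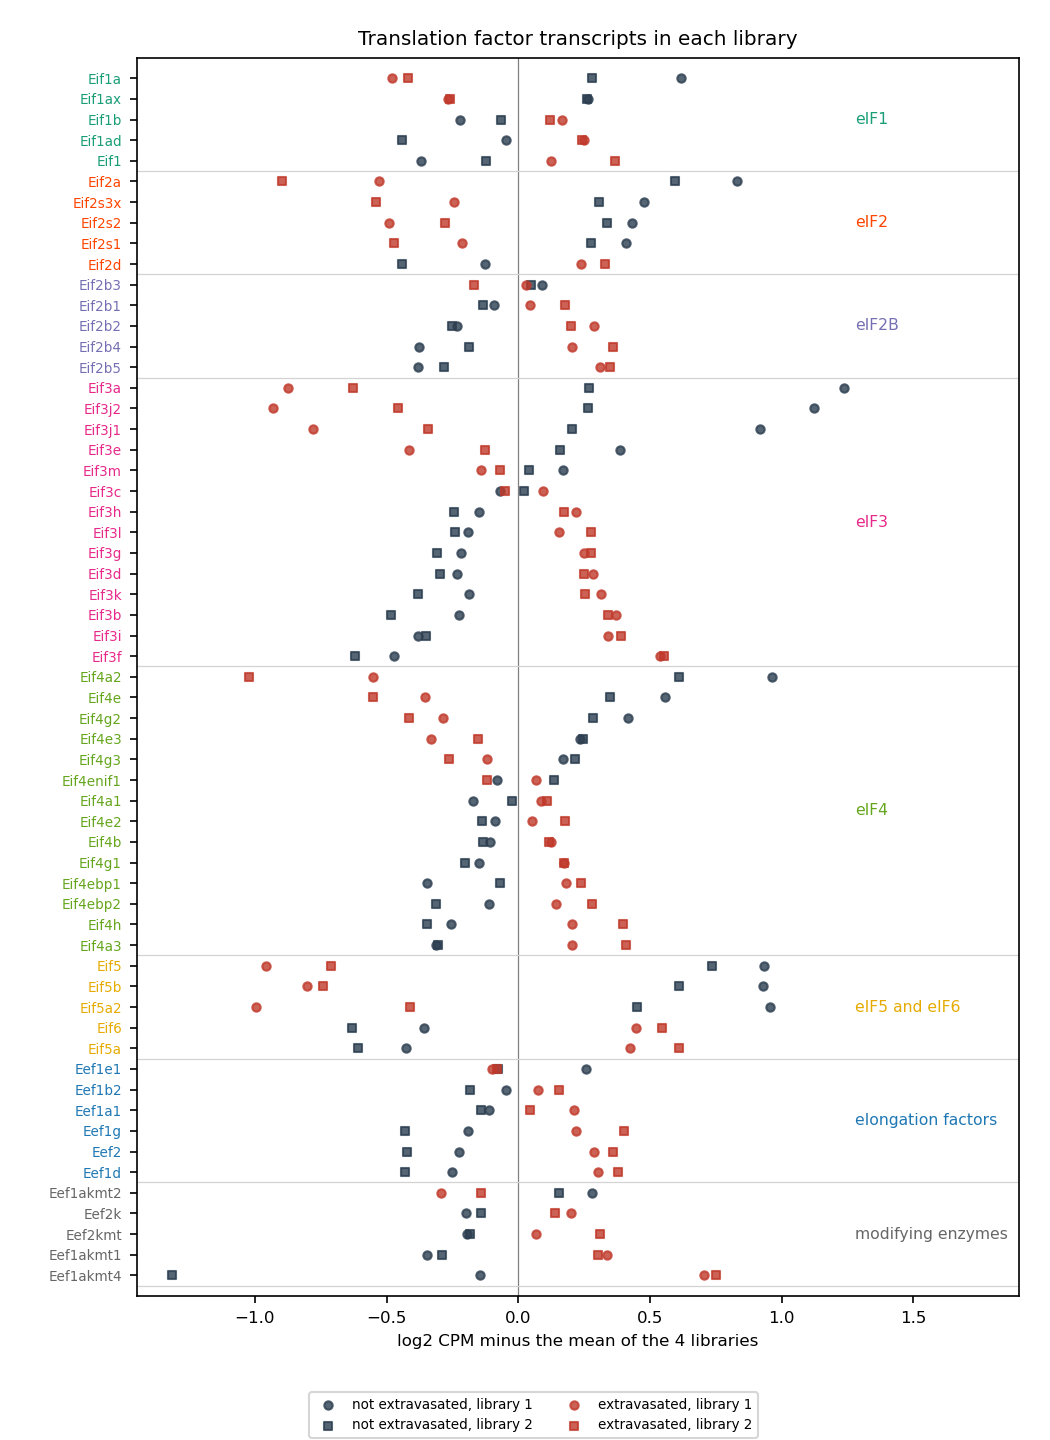
Each row is a translation factor gene, and each point is the log2 CPM of 1 library minus the mean log2 CPM of the 4 libraries. Circles and squares are libraries 1 and 2 of the non-extravasated (dark) and extravasated (red) group, and the groups separate for all genes shown except Eif3c and Eif4enif1; in Eef1akmt4, at 10 to 46 counts a library, the non-extravasated libraries lie far apart.

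Leaving out libraries set how many calls held. Without non-extravasated library 1 or 2, 42 and 37 of the 43 calls were kept, and without extravasated library 1 or 2, 22 and 11 were. The 10 genes called the same way whichever library was left out were Eif1a, Eif2a, Eif2s2, Eif3f, Eif4a2, Eif4e, Eif5, Eif5a, Eif5b and Eif6, and all 43 kept their direction. A group left with 1 library was assumed to vary like the other. Spread within a group was smaller than the difference between groups for most of these genes. Over 59 coding members, the median absolute log2 difference between libraries was 0.15 for the non-extravasated pair and 0.13 for the extravasated pair, and the median absolute fold change between groups was 0.56. Between groups 27 of the 59 differed by more than 1.5-fold, against 4 within the non-extravasated group and 0 within the extravasated group. The plot of values by library shows the same wide gap for Eif3a, Eif3j1 and Eif3j2 in the first non-extravasated library, which stood above the second.

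Fold changes ran with base composition. Across the 59 coding members, log2 fold change and GC content of the principal transcript had a Spearman rho of 0.81, and across all 11120 tested nuclear coding genes the rho was 0.74. These points share the same 4 libraries, and genes are not independent replicates. Within groups, the differences between libraries had a rho with GC content of -0.27 in the non-extravasated and 0.05 in the extravasated group. Of 18 members under 45% GC, 14 fell (77.8%), where 74.7% of all 2453 nuclear coding genes in that class fell. Of 25 members at 50 to 55% GC, 18 rose (72.0%), against 26.2% of 2941 genes. All 6 members at 55% GC or above rose, against 47.0% of 2884 genes. In the class of 45 to 50%, 2 of 10 members rose and 1 fell, with a median log2 fold change of 0.21 where all genes of that class had -0.35.

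**Figure D2:**
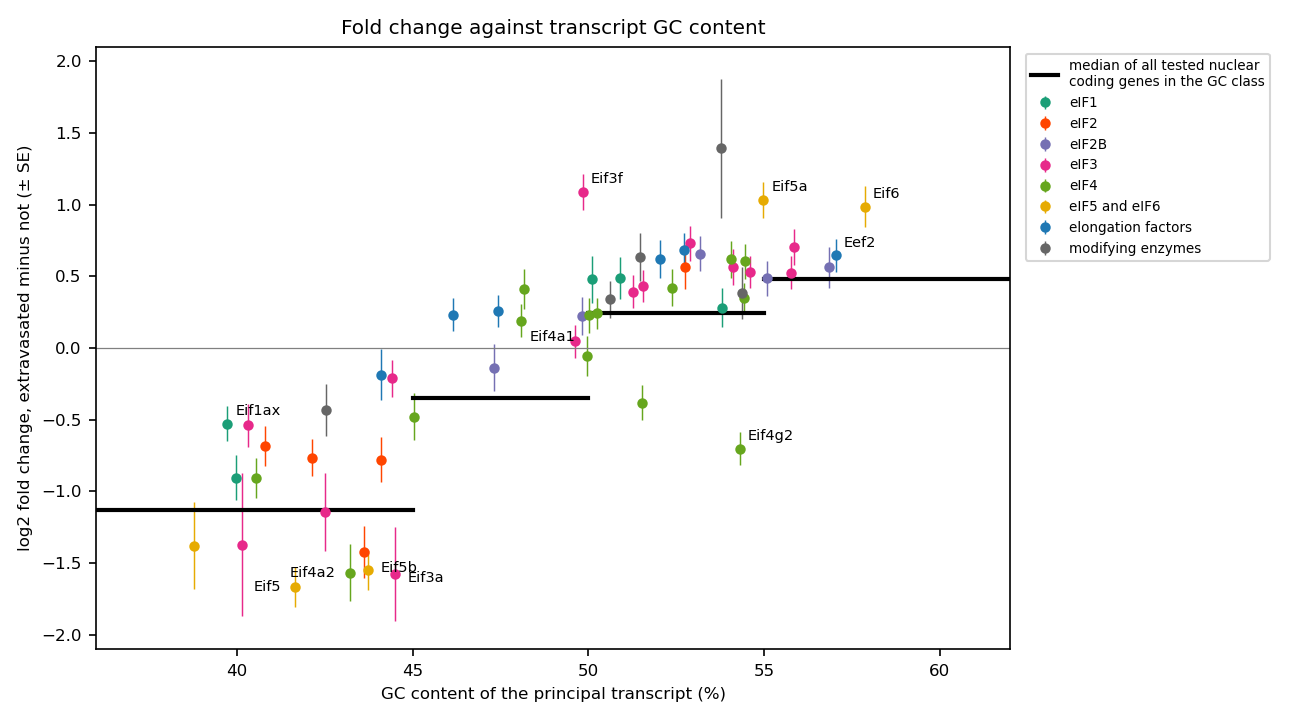
Log2 fold change (extravasated minus not, ± SE) of each coding translation factor gene against the GC content of its principal transcript, coloured by group. Black lines are medians of all tested nuclear coding genes in 4 GC classes, from -1.13 under 45% to 0.48 at 55% and above; Eif3f lies above its class, and Eif4g2 is placed at the GC content of a 742-base annotated fragment.

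Because of this trend the test was repeated with a correction, in which each library's smooth trend with transcript GC content and length entered edgeR as an offset. Under it 8.24% of all tested genes were called higher and 5.83% lower, and of the 60 translation factors 11 were called higher and 4 lower. Without extravasated library 1 or 2, edgeR with the correction called 0 genes of either kind, and 2411 and 2059 of all genes and 19 and 14 of the 60 had an unadjusted p under 0.05. The rho of members' fold changes with GC content was -0.02 with the correction and all libraries. Of the 43 genes called without the correction, 9 were called in the same direction with it, and 2, Eif1ax and Eif3e, were called in the opposite one. With complete transcripts these counts were 8 and 3, since Eif4g2, whose principal transcript is an incomplete fragment, went from called lower to called higher. Values with this correction are named corrected log2 fold changes below, and genes said to rise or fall did so without it unless stated. The cause of the trend was not tested.

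The eIF2 trimer binds the initiator tRNA. All 3 expressed subunit genes fell in the extravasated libraries, together with Eif2a, which encodes a separate protein that can bring initiator tRNA to the ribosome. Eif2s2, encoding the beta subunit, was at 304 and 285 CPM in the non-extravasated and 161 and 186 CPM in the extravasated libraries. Eif2s1, encoding the alpha subunit that stress kinases phosphorylate, was at 253 and 231 CPM in the non-extravasated and 164 and 137 CPM in the extravasated libraries. Eif2s3x, encoding the GTP-binding gamma subunit, was at 76.9 and 68.3 CPM in the non-extravasated and 46.7 and 38.1 CPM in the extravasated libraries. For each of the 3, both non-extravasated libraries exceeded both extravasated ones. Log2 fold changes ± SE were -0.77 ± 0.13 for Eif2s2 (edgeR adjusted p = 0.00355), -0.68 ± 0.14 for Eif2s1 (adjusted p = 0.00668) and -0.78 ± 0.16 for Eif2s3x (adjusted p = 0.00683). With the correction all 3 had positive values, 0.25, 0.48 and 0.11, and none was called. Their principal transcripts have GC contents of 42.1%, 40.8% and 44.1%.

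Eif2a (chromosome 3, 58525821 to 58557501, GRCm38) kept its direction in every fit. It was at 58.3 and 49.6 CPM in the non-extravasated and 22.7 and 17.6 CPM in the extravasated libraries, a difference of 2.68-fold between groups that do not overlap. Its log2 fold change was -1.42 ± 0.18 (edgeR adjusted p = 0.0015) without and -0.57 (adjusted p = 0.0403) with the correction. The gene overlaps Serp1 on the opposite strand, and the strand setting of the counting is not given in the sources used here, so reads from both genes may be mixed. Eif2d, a tRNA-delivering factor used in reinitiation, was the member of this group that rose, at 55.1 and 44.3 CPM in the non-extravasated and 70.9 and 75.6 CPM in the extravasated libraries (log2 fold change 0.56 ± 0.15, edgeR adjusted p = 0.0205; corrected 0.30, not called).

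Of the 5 subunit genes of eIF2B, the exchange factor of eIF2, 3 rose and the other 2 did not pass. Eif2b5, which encodes the catalytic epsilon subunit, was at 110.3 and 118 CPM in the non-extravasated and 178 and 183 CPM in the extravasated libraries. Eif2b2, the beta subunit gene, was at 95.0 and 93.7 CPM in the non-extravasated and 136 and 128 CPM in the extravasated libraries. Eif2b4, the delta subunit gene, was at 39.8 and 45.4 CPM in the non-extravasated and 59.7 and 66.3 CPM in the extravasated libraries. In all 3 genes both extravasated libraries were the higher ones. They rose with log2 fold changes of 0.66 ± 0.12 (edgeR adjusted p = 0.00492), 0.49 ± 0.12 (adjusted p = 0.0149) and 0.56 ± 0.15 (adjusted p = 0.0172). Eif2b1 (log2 fold change 0.23) and Eif2b3 (-0.14) did not pass. With the correction edgeR called 0 of the 5 (1 was higher at an unadjusted p under 0.05), and their median moved from 0.49 to 0.15. Together eIF2 and eIF2B gave 4 genes that rose and 4 that fell of 10, with a median log2 fold change of 0.04.

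In eIF3, the large complex that holds the small subunit open for mRNA and tRNA, 8 of 14 genes rose, 3 fell and 3 did not pass. The median log2 fold change was 0.41, and 0.17 with the correction. The risers were Eif3b, Eif3d, Eif3f, Eif3g, Eif3h, Eif3i, Eif3k and Eif3l, with uncorrected values from 0.39 to 1.09. Those that fell were Eif3a, Eif3e and Eif3j1. Risers had 49.8 to 55.9% GC in their principal transcripts, and the 3 that fell had 40.3 to 44.5%. With the correction Eif3f and Eif3e were called higher and 0 of the 14 lower.

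Eif3f stood apart from its base composition. The gene (chromosome 7, 108934417 to 108942951) encodes an MPN-domain subunit of the eIF3 core. It was at 92.4 and 83.3 CPM in the non-extravasated and 186 and 188 CPM in the extravasated libraries. Group means were 87.9 ± 6.44 and 187 ± 1.41 CPM (SD, n = 2), and the extravasated libraries lay 2.13-fold higher with no overlap. The log2 fold change was 1.09 ± 0.13 (edgeR adjusted p = 0.0011). The correction left it at 1.15 (adjusted p = 0.00406), the highest corrected value among the 60 genes, and it was called higher under all 5 forms of the correction that were run. Its transcript is 49.8% GC, at the upper edge of the class of 45 to 50%. Nuclear coding genes of that class had a median log2 fold change of -0.35, and those at 50 to 55% had 0.24.

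Eif3i and Eif3b, which encode WD-repeat subunits that bind each other, rose side by side. Eif3i was at 109 and 111 CPM in the non-extravasated and 179.6 and 186 CPM in the extravasated libraries (log2 fold change 0.73 ± 0.12, edgeR adjusted p = 0.00321). Eif3b was at 454 and 379.9 CPM in the non-extravasated and 686 and 672 CPM in the extravasated libraries (log2 fold change 0.70 ± 0.13, edgeR adjusted p = 0.00461). Neither was called with the correction (0.31 and 0.34). Eif3a, the gene of the largest subunit and scaffold, was at 1322 and 676 CPM in the non-extravasated and 306 and 363 CPM in the extravasated libraries. The first non-extravasated library was well above the second, although both exceeded the extravasated libraries. Its log2 fold change was -1.58 ± 0.33 (edgeR adjusted p = 0.0145), and -1.01 without that library. Without either extravasated library it was not called (adjusted p = 0.0705 and 0.0681). The corrected value was -0.59 (adjusted p = 0.215). Eif3e fell without the correction (-0.54, edgeR adjusted p = 0.0219) and was called higher with it (0.48, adjusted p = 0.0444), though not with the offsets centred on 0 (0.29) or with the longest transcripts (0.46). Eif3c was at 601 and 640.2 CPM in the non-extravasated and 673 and 609 CPM in the extravasated libraries, and these ranges overlap (log2 fold change 0.05). Eif3m had -0.21 and Eif3j2, at 8 to 29 counts a library, -1.37, and neither passed.

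Per kilobase of transcript, the mean levels of eIF3 genes in the non-extravasated libraries ran from 293 CPM per kb for Eif3h through Eif3k (243), Eif3l (206), Eif3a (195), Eif3d (188), Eif3c (183), Eif3g (157), Eif3b (142), Eif3e (126) and Eif3i (98.1) to Eif3m (62.7), Eif3f (35.0), Eif3j1 (17.4) and Eif3j2 (0.821). In the extravasated libraries Eif3a was at 65.3 CPM per kb and Eif3f at 74.5, so the order of this pair turned in these levels. They carry no correction for base composition, and with it Eif3a was not called. Eif3h stayed the highest at 385. Of 13 pairs of neighbours in the first order, the non-extravasated libraries of 5 overlapped, namely Eif3l with Eif3a, Eif3a with Eif3d, Eif3d with Eif3c, Eif3g with Eif3b and Eif3b with Eif3e.

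**Figure D3:**
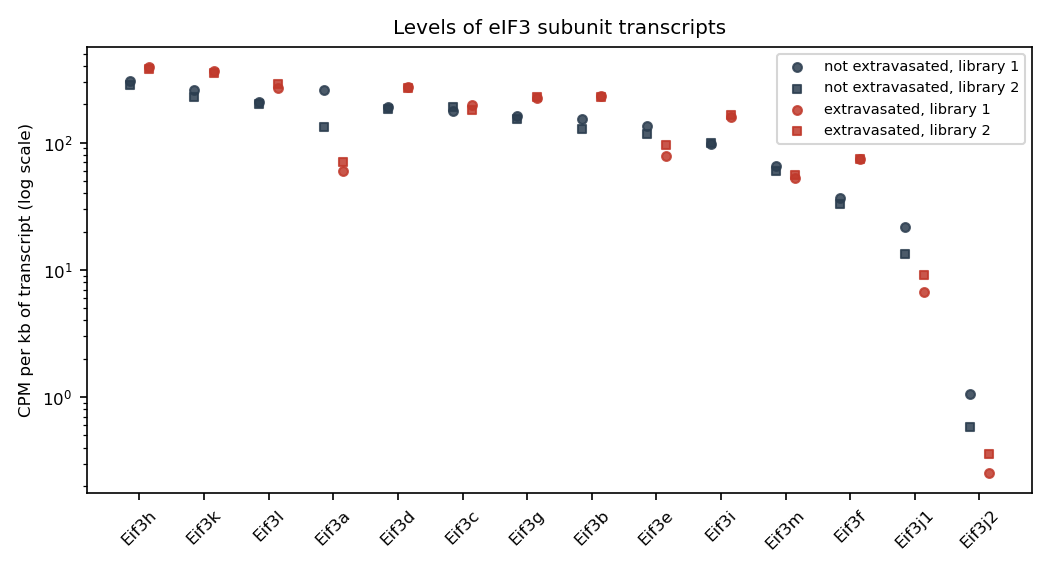
CPM per kb of transcript (log axis) of the 14 eIF3 genes, ordered by their mean in the non-extravasated libraries. Dark symbols are the non-extravasated and red the extravasated libraries. Without a correction for base composition, Eif3a drops from 195 to 65.3 CPM per kb between group means, and Eif3f climbs from 35.0 to 74.5.

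The eIF4 group held 5 genes that rose and 5 that fell of 14. It was taken by name, so beside genes of factors that bring mRNA to the ribosome it holds repressors and Eif4a3. Without the correction some paralogues differed in direction. Among the helicases, Eif4a1, the main eIF4A gene, was at 471 and 522 CPM in the non-extravasated and 563 and 572 CPM in the extravasated libraries. Eif4a2, its close relative shown above, was at 247 and 194 CPM in the non-extravasated and 86.5 and 62.4 CPM in the extravasated libraries. Eif4a3, which encodes a component of the exon junction complex on spliced mRNA, was at 128 and 129 CPM in the non-extravasated and 183 and 212 CPM in the extravasated libraries. The groups did not overlap in any of the 3. Eif4a1 did not pass (log2 fold change 0.19 ± 0.11, edgeR adjusted p = 0.204), Eif4a2 fell 2.96-fold (-1.57 ± 0.20, adjusted p = 0.00175) and Eif4a3 rose (0.62 ± 0.13, adjusted p = 0.00747). With the correction Eif4a2 was still called lower (-0.67, edgeR adjusted p = 0.0294), but not when the longest transcripts were used (-0.43). Corrected values of Eif4a1 and Eif4a3 were 0.41 and 0.19, neither of them called. Eif4a2 holds 5 annotated snoRNA genes on its strand, Snord2 and Snora81 among them, and overlaps Rfc4 on the other. Per kb, Eif4a1 was at 280.0 and Eif4a2 at 99.8 CPM in the non-extravasated group, and at 319.9 and 33.7 in the extravasated group.

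Of the cap-binding proteins, Eif4e, the canonical one, was at 188 and 162 CPM in the non-extravasated and 99.8 and 86.8 CPM in the extravasated libraries. Eif4e2, a relative that represses translation, was at 169 and 163 CPM in the non-extravasated and 186 and 203 CPM in the extravasated libraries. Eif4e3 was at 29.2 and 29.4 CPM in the non-extravasated and 19.7 and 22.3 CPM in the extravasated libraries. Both non-extravasated libraries were higher for Eif4e and Eif4e3, and both extravasated libraries for Eif4e2. Eif4e fell (log2 fold change -0.91 ± 0.14, edgeR adjusted p = 0.00269), Eif4e3 fell (-0.48 ± 0.16, adjusted p = 0.0454) and Eif4e2 did not pass (0.23 ± 0.12, adjusted p = 0.156). Their corrected values were 0.39, 0.22 and 0.21, none of them called.

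Of the scaffolds, Eif4g1 was at 1664 and 1602 CPM in the non-extravasated and 2080.4 and 2082 CPM in the extravasated libraries and rose (log2 fold change 0.35 ± 0.10, edgeR adjusted p = 0.0287; corrected 0.23, not called). Eif4g2, encoding a scaffold without the eIF4E site that serves cap-independent initiation, was at 1614 and 1475 CPM in the non-extravasated and 993 and 907 CPM in the extravasated libraries. Eif4g3 was at 229.6 and 237 CPM in the non-extravasated and 188 and 170.3 CPM in the extravasated libraries. Both fell, by 0.70 ± 0.11 for Eif4g2 (edgeR adjusted p = 0.00324) and by 0.38 ± 0.12 for Eif4g3 (adjusted p = 0.0348) on the log2 scale. Eif4g3 had a corrected value of -0.25 and was not called, nor with the longest (-0.15) or complete transcripts (-0.25). It was called lower with the offsets centred on 0 (-0.43) and with GC content alone (-0.48). The corrected value of Eif4g2 turned on the annotated transcript. It was -1.26 with its principal transcript, an incomplete fragment of 742 bases, and 0.59 with a complete transcript of 7995 bases, and it was called in each case. No direction is therefore given for Eif4g2 after correction.

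Both expressed 4E-BP genes, whose products hold eIF4E away from eIF4G until mTORC1 phosphorylates them, rose. Eif4ebp1 was at 96.9 and 117 CPM in the non-extravasated and 139.9 and 145 CPM in the extravasated libraries (log2 fold change 0.41 ± 0.14, edgeR adjusted p = 0.0433; corrected 0.64, adjusted p = 0.0275). Eif4ebp2 was at 281 and 245 CPM in the non-extravasated and 335 and 369 CPM in the extravasated libraries (0.42 ± 0.13, edgeR adjusted p = 0.03; corrected 0.46, adjusted p = 0.0442). The extravasated libraries were the higher ones in both genes. Each uncorrected call held in 1 of 4 leave-outs. Without extravasated library 1 or 2 edgeR called neither gene (adjusted p from 0.0671 to 0.276). Without non-extravasated library 1 Eif4ebp1 was not called (adjusted p = 0.134), and without library 2 Eif4ebp2 was not (adjusted p = 0.0662). With the offsets centred on 0 neither was called (adjusted p = 0.0551 and 0.2). Eif4ebp2 also missed the threshold with the longest transcripts (log2 fold change 0.44) and with GC content alone (0.24). Eif4ebp3 had 0 to 3 counts a library and was not tested. The helicase cofactor gene Eif4h also rose (0.60), and Eif4b (0.24) and Eif4enif1 (-0.05) did not pass. The corrected value of Eif4h was 0.25 and not called.

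**Figure D4:**
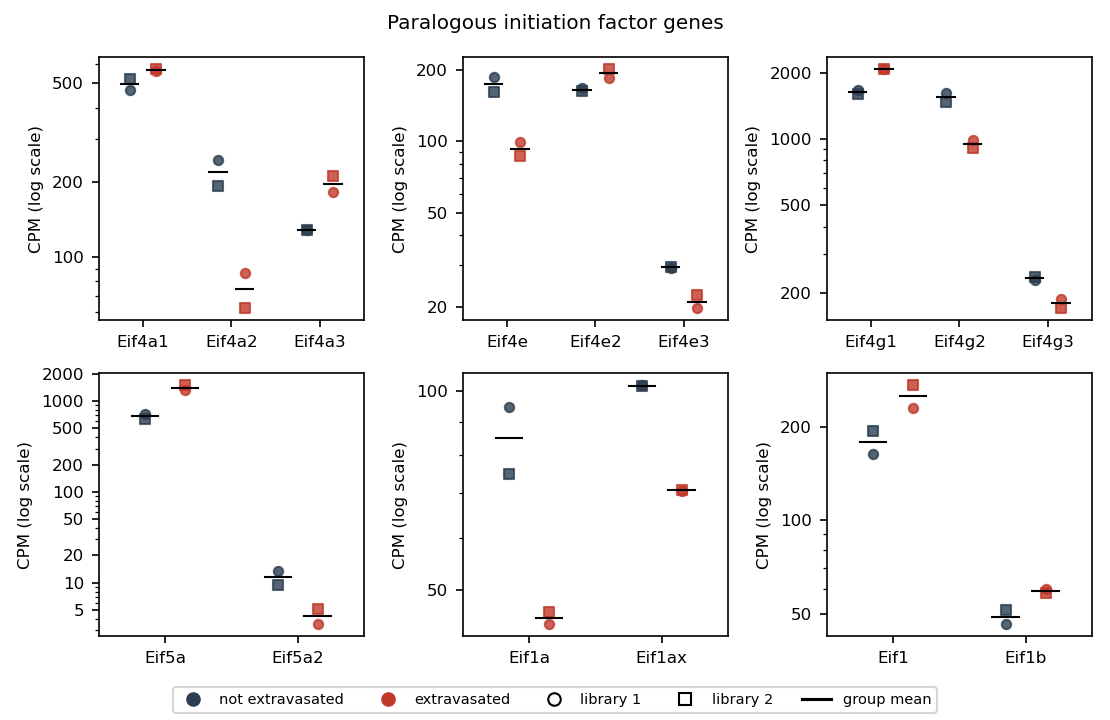
CPM (log axes that differ between panels) of paralogous initiation factor genes in each library; dark symbols are non-extravasated, red symbols extravasated libraries, circles library 1, squares library 2, and bars group means. Eif4a2, Eif4e, Eif4g2 and Eif5a2 are lower in the extravasated libraries where Eif4a3, Eif4e2, Eif4g1 and Eif5a are higher. The CPM carry no correction for base composition.

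The eIF1 proteins scan for the start codon. Eif1 was at 163 and 194 CPM in the non-extravasated and 229.6 and 272 CPM in the extravasated libraries and rose (log2 fold change 0.49 ± 0.14, edgeR adjusted p = 0.0273). Its paralogue Eif1b was at 46.2 and 51.4 CPM in the non-extravasated and 60.3 and 58.4 CPM in the extravasated libraries and did not pass (0.28 ± 0.14, adjusted p = 0.129). Corrected values were 0.29 for Eif1 and -0.21 for Eif1b, neither of them called. Without the correction the eIF1A genes, Eif1a and Eif1ax, both went the other way from Eif1. Their coding sequences are 85.52% identical to each other, and both have 38.62% G or C at the third position of codons. Eif1a was at 94.8 and 74.9 CPM in the non-extravasated and 44.3 and 46.2 CPM in the extravasated libraries, and Eif1ax, its X-linked relative, at 102 and 102 CPM in the non-extravasated and 70.6 and 70.9 CPM in the extravasated libraries. The non-extravasated libraries were the higher ones in both. Eif1a fell by 0.90 ± 0.16 (edgeR adjusted p = 0.00392) and Eif1ax by 0.53 ± 0.12 (adjusted p = 0.0115) on the log2 scale. With the correction Eif1ax was called higher (0.79, adjusted p = 0.0259), also under the other forms of the correction, so its direction depends on whether the trend is removed. Eif1a then had 0.26 and was not called. Eif1ad, named for its likeness to eIF1A, rose (0.48; corrected 0.51, not called).

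Eif5, the gene of the GTPase-activating protein that makes eIF2 release its GTP at the start codon, had the lowest log2 fold change of all 60 genes. It lies on chromosome 12, 111538016 to 111546752 and was at 649 and 566 CPM in the non-extravasated and 175 and 207 CPM in the extravasated libraries. Group means were 607 ± 58.5 and 191 ± 23.1 CPM (SD, n = 2), a 3.18-fold difference without overlap. Its log2 fold change was -1.67 ± 0.14 (edgeR adjusted p = 0.000719) without and -0.50 (adjusted p = 0.0403) with the correction. Eif5b, the gene of the GTPase for subunit joining, was at 467 and 375 CPM in the non-extravasated and 141 and 147 CPM in the extravasated libraries. It fell (-1.55 ± 0.14, edgeR adjusted p = 0.000719), and its corrected value was -0.31 (adjusted p = 0.127). Eif5b was called lower with the offsets centred on 0 (-0.50, edgeR adjusted p = 0.0391) and with GC content alone (-0.60, adjusted p = 0.018). It was not called with the longest (-0.33) or complete transcripts (-0.31). The gene overlaps Rev1 on the opposite strand.

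Eif5a and Eif5a2 encode the proteins known to carry hypusine, a modified lysine. Eif5a was at 727 and 641 CPM in the non-extravasated and 1309.8 and 1493 CPM in the extravasated libraries. Both extravasated libraries were above both others, and the gene rose 2.05-fold (log2 fold change 1.03 ± 0.13, edgeR adjusted p = 0.00127; corrected 0.55, adjusted p = 0.0265). With the offsets centred on 0 Eif5a was not called (0.36, adjusted p = 0.105). Eif5a2 was at 13.5 and 9.49 CPM in the non-extravasated and 3.48 and 5.21 CPM in the extravasated libraries and fell (-1.38 ± 0.30, edgeR adjusted p = 0.00923; corrected -0.04, not called). Per kb, Eif5a was at 476 CPM and Eif5a2 at 2.28 in the non-extravasated group. Eif6, whose product keeps the ribosomal subunits apart until the large one is mature, was at 61.7 and 51.0 CPM in the non-extravasated and 108 and 115 CPM in the extravasated libraries and rose (0.99 ± 0.14, edgeR adjusted p = 0.00226; corrected 0.43, adjusted p = 0.0685).

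Among elongation factors 3 of 6 genes rose and 0 fell, and 0 had a lower level at an unadjusted edgeR p under 0.05 or were called lower by DESeq2 or limma-voom. The summed level of the 6 was 13511 and 12615 CPM in the non-extravasated and 17676 and 17079.7 CPM in the extravasated libraries, the bulk of which came from Eef1a1 and Eef2. Eef2, encoding the translocase, was at 4324 and 3774 CPM in the non-extravasated and 6184 and 6493 CPM in the extravasated libraries and rose (log2 fold change 0.65 ± 0.12, edgeR adjusted p = 0.00461). Eef1d, encoding a nucleotide exchange subunit, was at 266 and 235 CPM in the non-extravasated and 391 and 413 CPM in the extravasated libraries and rose (0.68 ± 0.12, adjusted p = 0.00449). Eef1g, encoding the gamma subunit of the exchange complex, was at 599.8 and 508 CPM in the non-extravasated and 797 and 904 CPM in the extravasated libraries and rose (0.62 ± 0.13, adjusted p = 0.00818). In these 3 genes both extravasated libraries exceeded both others. With the correction Eef2 (0.26) and Eef1g (0.39) were not called. Eef1a1, the most abundant transcript of the family at 4310.3 CPM per kb in the non-extravasated and 5148 in the extravasated group, was at 7820.3 and 7645 CPM in the non-extravasated and 9768 and 8704 CPM in the extravasated libraries. It did not pass (0.26 ± 0.11, edgeR adjusted p = 0.0963), though its libraries did not overlap. Its muscle and nerve counterpart Eef1a2 had 1 to 4 counts a library and was not tested.

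Of the 6 genes grouped by name as elongation factors, 4 were called higher with the correction. These were Eef1b2 (0.73, edgeR adjusted p = 0.0135), Eef1e1 (0.63, adjusted p = 0.0359), Eef1a1 (0.56, adjusted p = 0.0219) and Eef1d (0.44, adjusted p = 0.0472). The median log2 fold change of the 6 was 0.44 without and 0.50 with the correction, where all genes had -0.02 and 0.04. Eef1b2, an exchange subunit gene, was at 471 and 429 CPM in the non-extravasated and 514 and 543 CPM in the extravasated libraries and had 0.23 ± 0.12 without the correction (edgeR adjusted p = 0.138). It overlaps Ndufs1 on the opposite strand. Eef1e1, whose product belongs to the aminoacyl-tRNA synthetase complex, was at 30.1 and 23.9 CPM in the non-extravasated and 23.5 and 23.8 CPM in the extravasated libraries, with the first non-extravasated library above the other 3 (-0.19, not called). With the offsets centred on 0, Eef1b2 alone of the 6 was called (0.54, edgeR adjusted p = 0.0346), and Eef1a1 (0.37), Eef1e1 (0.44) and Eef1d (0.25) were not. Eef1d was also not called with the longest transcripts (0.27).

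Of the 5 genes of enzymes that modify elongation factors, 2 rose and 0 fell by edgeR, with 1 lower at an unadjusted p under 0.05. DESeq2 called 1 higher, Eef1akmt1 but not Eef1akmt4, and 0 lower. Eef1akmt1, a lysine methyltransferase of eEF1A, was at 16.4 and 17.1 CPM in the non-extravasated and 26.3 and 25.7 CPM in the extravasated libraries and rose (log2 fold change 0.64 ± 0.17, edgeR adjusted p = 0.0179). Eef1akmt4 was at 1.30 and 0.579 CPM in the non-extravasated and 2.35 and 2.42 CPM in the extravasated libraries, from 10 to 46 counts a library, and rose (1.39 ± 0.48, adjusted p = 0.0477). Neither was called with the correction. Eef2k, the kinase that inactivates eEF2, had 0.34 (adjusted p = 0.0609) and was called higher with the correction (0.60, adjusted p = 0.0211). It was not called with the offsets centred on 0 (0.41, adjusted p = 0.0559) or with GC content alone (0.34, adjusted p = 0.0799). Eef1akmt2 (-0.43) and Eef2kmt (0.38) did not pass in either fit.

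**Figure D5:**
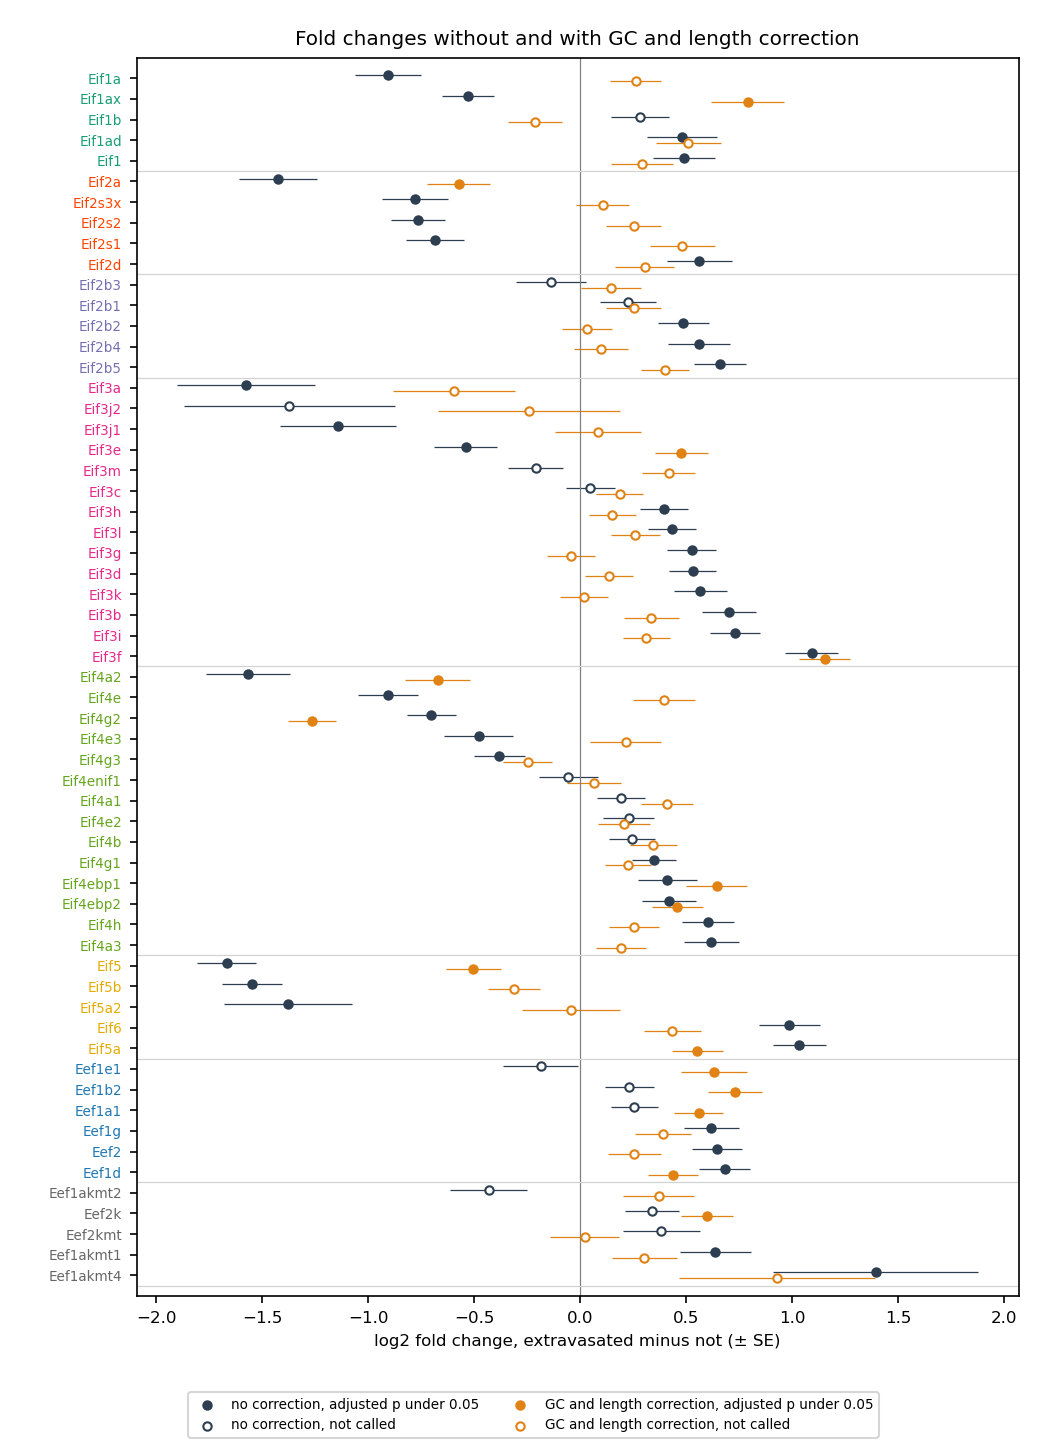
Log2 fold change (± SE) of each translation factor gene without (dark) and with (orange) the correction for transcript GC content and length; filled points have an edgeR adjusted p under 0.05. Eif2c5 is not drawn. With the correction 47 of the 60 tested genes lie nearer to 0 or on its other side, Eif2c5 not among them, and Eif3f is at 1.15.

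The plot of fold changes without and with the correction shows which calls hold in both. Eif3f upward and Eif2a and Eif5 downward, were called the same way without the correction and under each of 4 forms of it (principal, longest or complete transcripts, and offsets centred on 0). In the fifth form, which used GC content alone, Eif3f and Eif5 were called and Eif2a was not (-0.47, edgeR adjusted p = 0.0582). Each of the 3 kept its uncorrected call whichever library was left out. Their corrected calls held without either non-extravasated library and were lost without either extravasated library. With the longest transcripts 9 members were called higher and 2 lower (all genes 8.05% and 5.44%), and with complete transcripts 12 and 3 (8.24% and 5.83%). With the offsets centred, 3.27% of all genes were called higher and 10.3% lower, the median of all tested genes was -0.14 in place of 0.04, the split of all called genes was 403 higher and 1268 lower in place of 1015 and 718, and the members' split was 3 and 6 in place of 11 and 4.

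Between the groups named in the design of this comparison, uncorrected medians of log2 fold change were 0.04 for eIF2 with eIF2B (10 genes), 0.41 for eIF3 (14), 0.21 for eIF4 (14) and 0.44 for elongation factors (6). The eIF2 genes alone had -0.77 and the eIF5 and eIF6 genes -1.38. With the correction the medians were 0.20, 0.17, 0.22 and 0.50, and 0.25 for eIF2 and -0.04 for eIF5 and eIF6. Once corrected, the first 3 groups lay between 0.17 and 0.22, and the elongation factors, Eef1e1 included by name, had the highest median of the 4. Median GC contents were 48.6, 50.6, 50.1 and 49.7% in the same order of 4, and 43.6% for eIF2 alone. No test of a difference between groups of genes was made.

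Lists of neighbouring pathway genes gave 12 that rose (22.6%) and 16 that fell (30.2%) of 53 tested, shares near the 19.1% and 25.9% of all genes, so the values below describe single genes. Of 9 genes of the eIF2 kinases, their adaptors and phosphatase, and Atf4, 3 fell and 0 rose by edgeR, also at an unadjusted p under 0.05 and by DESeq2. Eif2ak2, the kinase activated by double-stranded RNA, was at 57.7 and 43.7 CPM in the non-extravasated and 12.6 and 8.48 CPM in the extravasated libraries, and fell in both fits (log2 fold change -2.28 ± 0.24, edgeR adjusted p = 0.001; corrected -1.31, adjusted p = 0.00767). Nck1 (-1.31) and Eif2ak4, the amino acid sensor (-0.59), fell without the correction alone. Atf4, whose translation eIF2 phosphorylation raises, was at 355 and 654 CPM in the non-extravasated and 396 and 410.1 CPM in the extravasated libraries and did not pass.

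Of 16 genes that act at the cap and the poly(A) tail, 2 rose and 6 fell. Gigyf2, the partner of the eIF4E2 repressor, was at 128 and 137 CPM in the non-extravasated and 52.7 and 41.7 CPM in the extravasated libraries and fell in both fits (log2 fold change -1.49 ± 0.15, edgeR adjusted p = 0.000858; corrected -1.07, adjusted p = 0.0055). Pdcd4, an inhibitor of eIF4A, was at 5.82 and 6.13 CPM in the non-extravasated and 1.14 and 1.58 CPM in the extravasated libraries and fell (-2.11 ± 0.34, adjusted p = 0.00307; corrected -1.20, adjusted p = 0.0513). Mknk2, a kinase of eIF4E, was at 176 and 128 CPM in the non-extravasated and 309.5 and 355 CPM in the extravasated libraries and rose in both fits (1.13 ± 0.17, adjusted p = 0.00281; corrected 0.71, adjusted p = 0.032). For each of the 3 the groups did not overlap. With the offsets centred on 0 Mknk2 was not called (0.51, edgeR adjusted p = 0.114). Pdcd4 was called lower with centred offsets (-1.39, edgeR adjusted p = 0.0341) and with the longest transcripts (-1.25, adjusted p = 0.0463). It was not called with complete transcripts (-1.21) or GC content alone (-1.10). Paip1, a partner of poly(A)-binding protein, fell (-1.004; corrected 0.11, not called).

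In the mTORC1 pathway 5 of 10 genes rose and 1 fell. Akt1s1 (0.77), Tsc2 (0.65) and Rptor (0.53) rose, and Rps6kb1, the S6 kinase gene, fell from 197 and 134 to 60.7 and 56.7 CPM (-1.50). With the correction Tsc2 was called (0.56), though not with centred offsets (0.37) or GC content alone (0.30), and Rps6kb1 was not (-0.10). Corrected values of Akt1s1 (0.19) and Rptor (0.41) were not called either. Of 9 genes of termination, recycling and reinitiation, 5 fell and 0 rose by edgeR, also at an unadjusted p under 0.05 and by DESeq2. These were led by Etf1 (-0.69), Denr (-0.63), Abce1 (-0.97) and Mcts1 (-0.66). With the correction edgeR called 0 of the 9, and at an unadjusted p under 0.05 3 were higher and 1 lower. Of 9 enzymes that put diphthamide on eEF2 or hypusine on eIF5A, 5 rose and 1 fell. Dohh, which completes hypusine, was at 3.73 and 3.18 CPM in the non-extravasated and 10.3 and 10.3 CPM in the extravasated libraries and rose in both fits (log2 fold change 1.58 ± 0.25, edgeR adjusted p = 0.003; corrected 0.96, adjusted p = 0.0379). Dph2 rose in both as well (1.001; corrected 0.68). Neither Dohh nor Dph2 was called with centred offsets (0.77 and 0.49). Dph6 fell (-1.16; corrected -0.15, not called).

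Reads could not be assigned with certainty everywhere. Of the 60 genes, 16 overlap another protein-coding gene, and 8 hold snoRNA genes on their own strand, of which 2 rose, 4 fell and 2 did not pass.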

How the data were processed

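B16-F10 libraries, 2 extravasated and 2 not, were compared. The deposited values were raw counts of reads per gene, whole numbers with no normalization by the authors. Per the submitters' processing notes, reads were processed with bcl2fastq (2.18.0.12) and STAR (2.5.3a) and the genome was GRCm38. Which counter, annotation, strandedness and filter were used is not given in the sources used here. Of 53465 identifiers, 53360 matched GENCODE M21, 105 did not, and members were found by its symbols.

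Genes were tested with edgeR 4.0.16 (R 4.3.3) after its default expression filter (at least 10 counts scaled to library size, 15 in total). The two-sided quasi-likelihood test had TMM factors, robust moderation and no covariates. Benjamini-Hochberg adjusted p-values run over all 12320 tested genes, with a threshold of 0.05. CPM are TMM-scaled. For the correction, each library's deviation in log2 CPM (prior count 2) was smoothed on GC content and log2 length of the APPRIS principal transcript (mgcv 1.9-3, basis size 10) and entered as an offset. The code was tested on simulated counts.

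The members, lists and tests were chosen with earlier results of these data known, and the GC trend was known too. Values in every library are given for the 3 called members with the smallest adjusted p of each group, fixed paralogue sets and the extreme eIF3 subunits, and up to 4 called genes of each further list are named. Values by library of Eif2d, Eif3c, Eif6, Eef1b2, Eef1e1 and Atf4 were added after seeing them. Alternatives were other filters and factors, DESeq2 1.42.0, limma-voom (limma 3.58.1), no robust moderation, a title suffix term, forms of the correction, and leaving out each library. Counts limit precision at the low end: Eif3j2 had 8 to 29 counts a library.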

Additional observations from a re-analysis of the deposited data

How the results depend on the processing

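Every uncorrected call of a translation factor kept its direction under the filters, scaling factors, tools, the title suffix term and the leave-outs. Filters, RLE factors, DESeq2, limma-voom, no robust moderation and the suffix term kept 41 to 43 of the 43 calls among the translation factors, upper quartile factors 41, and unscaled library totals 38. Upper quartile factors moved the medians of eIF2 with eIF2B, eIF3, eIF4 and elongation factors to 0.14, 0.51, 0.30, 0.53, and unscaled totals moved the first 3 to -0.0095, 0.36, 0.15. The titles hold no replicate numbers, but in each group 1 title ends in C and the other in a lower-case letter, and what this suffix marks is not stated. With the kind of suffix as a block in the pairing of libraries, edgeR kept all 43 calls and added 2. The correction was run in 5 forms. In the order of principal, complete and longest transcripts, offsets centred on 0, and GC content alone, all genes called numbered 1733, 1733, 1662, 1671, 2203; members called higher 11, 12, 9, 3, 19; and members called lower 4, 3, 2, 6, 5. In the same order the medians were 0.20, 0.20, 0.21, 0.013, 0.32 for eIF2 and eIF2B; 0.17, 0.17, 0.13, -0.017, 0.28 for eIF3; 0.22, 0.24, 0.27, 0.035, 0.28 for eIF4; 0.50, 0.50, 0.43, 0.31, 0.58 for elongation factors. The complete transcripts and the centred offsets were added after seeing the data. Of the single genes, these had log2 fold changes of the opposite sign in all 5 forms, in the same order: Eif1a (0.26, 0.26, 0.24, 0.078, 0.36), Eif1ax (0.79, 0.79, 0.78, 0.61, 0.72), Eif1b (-0.21, -0.21, -0.24, -0.39, -0.019), Eif2s1 (0.48, 0.48, 0.46, 0.30, 0.54), Eif2s2 (0.25, 0.25, 0.22, 0.069, 0.36), Eif3e (0.48, 0.48, 0.46, 0.29, 0.70), Eif3m (0.42, 0.42, 0.38, 0.23, 0.65), Eif4e (0.39, 0.40, 0.39, 0.21, 0.34), Eif4e3 (0.22, 0.22, 0.16, 0.031, 0.29), Eef1e1 (0.63, 0.63, 0.58, 0.44, 0.72), Eef1akmt2 (0.37, 0.37, 0.35, 0.19, 0.65), Denr (0.30, 0.30, 0.26, 0.12, 0.41), Abce1 (0.26, 0.26, 0.25, 0.074, 0.30), Mcts1 (0.23, 0.23, 0.21, 0.049, 0.58). In some forms alone the sign turned for Eif2s3x (principal 0.11, complete 0.10, longest 0.065, GC alone 0.12), Eif2b2 (centred -0.15), Eif2b3 (principal 0.15, complete 0.15, longest 0.35, GC alone 0.31), Eif2b4 (centred -0.082), Eif3d (centred -0.051), Eif3g (principal -0.043, complete -0.044, longest -0.058, centred -0.23), Eif3h (centred -0.036), Eif3j1 (principal 0.084, complete 0.084, longest 0.067), Eif3k (centred -0.17), Eif4enif1 (principal 0.064, complete 0.063, GC alone 0.026), Eif4g2 (complete 0.59, longest 0.57), Eef2kmt (longest -0.0089, centred -0.16), Paip1 (principal 0.11, complete 0.12, longest 0.090, GC alone 0.23), Akt1s1 (centred -0.0023), Etf1 (principal 0.18, complete 0.18, longest 0.13, GC alone 0.18). Of uncalled genes, Eif4enif1 had 0.034 with upper quartile factors and Eif3c -0.0076 with unscaled totals. Leaving out 1 library gave 1677 to 6185 called genes, 3 to 25 members higher and 8 to 17 lower without the correction, and 0 to 3136, 0 to 18 and 0 to 5 with it. Medians ran 0.024 to 0.065 and with the correction 0.15 to 0.22 for eIF2 and eIF2B, 0.36 to 0.46 and with the correction 0.16 to 0.24 for eIF3, 0.14 to 0.25 and with the correction 0.15 to 0.29 for eIF4, 0.37 to 0.52 and with the correction 0.45 to 0.54 for elongation factors. Over all leave-outs, with and without the correction, genes whose sign turned in any of them ran Eif1a -1.07 to 0.31, Eif1ax -0.56 to 1.06, Eif1b -0.30 to 0.36, Eif2s1 -0.79 to 0.63, Eif2s2 -0.91 to 0.36, Eif2s3x -0.90 to 0.18, Eif2b2 -0.048 to 0.50, Eif2b3 -0.21 to 0.17, Eif3c -0.00069 to 0.24, Eif3e -0.72 to 0.57, Eif3g -0.080 to 0.57, Eif3j1 -1.46 to 0.31, Eif3k -0.034 to 0.67, Eif3m -0.28 to 0.52, Eif4e -1.01 to 0.53, Eif4e3 -0.61 to 0.37, Eif4enif1 -0.16 to 0.19, Eif5a2 -1.74 to 0.13, Eef1e1 -0.35 to 0.74, Eef1akmt2 -0.54 to 0.46, Eef2kmt -0.078 to 0.52, Nck1 -1.46 to 0.074, Paip1 -1.08 to 0.41, Rps6kb1 -1.75 to 0.024, Etf1 -0.76 to 0.19, Denr -0.68 to 0.37, Abce1 -1.21 to 0.38, Mcts1 -0.81 to 0.42, Dph6 -1.54 to 0.17. The cause of these changes was not tested. With 2 libraries a group, the calls rest on 2 residual degrees of freedom per gene beside the shared spread.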
